A study of Homo sapiens with 6 samples.

Results

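The expression of 9 target genes of the transcription factor p53 was examined in OCI-LY10, a human diffuse large B-cell lymphoma line of the activated B cell-like type. The genes were MDM2, TP53INP1, GADD45A, FAS, TNFRSF10B, RRM2B, XPC, DDB2 and ZMAT3, and every probe annotated to them was taken, which gave 17 of the 47231 probes, for 9 of 20046 annotated genes. Cells had been treated with pimasertib, which blocks the kinases MEK1 and MEK2 of the ERK pathway, or given DMSO, its solvent. Each treatment had 1 Illumina bead array at 4, 8 and 12 h, or 3 arrays per treatment and 6 in all. The DMSO cells are also described as not treated, and the dose of pimasertib is not given in the sources used here. All arrays came from 1 cell line, and nothing in the labels says that the 3 times came from separate cultures. The spread behind each p-value is therefore that among these arrays, and part of it may be technical.

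p53 is kept low by MDM2, a ubiquitin ligase that p53 itself induces, so that the pair forms a negative feedback loop. When DNA damage or oncogenic stress breaks this loop, p53 binds response elements in its target genes and raises their transcription. The targets halt the cell cycle, repair DNA, supply nucleotides or start apoptosis. In germinal centre B cells the repressor BCL6 holds p53 down while DNA is being broken and joined at the immunoglobulin genes.

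Values are the authors' log2 intensities, already quantile-normalized. A probe was taken as measured, and is called kept here, where it exceeded a background threshold of log2 6.70 in 3 or more of the 6 arrays. By this rule 19896 probes were kept, and they covered 11100 named genes. The cell line was checked against its markers. Of 6 B cell marker genes measured, 5 had a probe above the threshold in all 6 arrays, and PAX5 had none above it in any array. All 5 markers of the activated B cell-like type were above it in all arrays. Of 10 markers of other cell types, KRT8 and CD14 had such a probe. The array of DMSO cells at 8 h differed most from the others. Its correlation with them averaged 0.925 over kept probes, against 0.951 to 0.973 for each of the other 5. EGR1, a transcription factor induced through ERK and the check of the treatment, averaged 6.74 ± 0.12 with pimasertib and 8.65 ± 0.29 in DMSO (SD, n = 3 each). Its difference of -1.90 ± 0.20 (SE) had an unadjusted p of 5.17e-05, and the adjusted p over all kept probes was 0.691 in limma. No EGR1 array with pimasertib reached the DMSO arrays, although the difference did not pass the adjustment. The EGR1 value with pimasertib at 12 h, 6.62, lay under the threshold, so the size of the difference is limited by background.

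The p53 response element is a pair of 10-base repeats. It was searched for here with at most 1 base between the repeats, a setting of this search. RefSeq promoters (GRCh38.p14, 250 bases before to 50 after a start site) were at hand for 5 members, with 12 start sites among them. The p53 response element consensus reads the same on both strands. It was found with at most 2 mismatches over its 20 bases in promoters of DDB2, MDM2 and FAS, and in 1.34% of all 35116 promoters. Those of DDB2, MDM2 and FAS are shown because they hold such a match, which is in capitals.

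DDB2, chr11:47214724-47215023, + strand: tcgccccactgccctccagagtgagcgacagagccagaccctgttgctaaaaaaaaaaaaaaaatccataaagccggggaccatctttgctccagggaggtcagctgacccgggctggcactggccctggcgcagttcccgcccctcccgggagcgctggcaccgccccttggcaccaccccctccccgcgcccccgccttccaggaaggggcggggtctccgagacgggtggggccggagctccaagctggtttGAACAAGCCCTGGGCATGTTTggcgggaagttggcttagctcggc
MDM2, chr12:68808767-68809066, + strand: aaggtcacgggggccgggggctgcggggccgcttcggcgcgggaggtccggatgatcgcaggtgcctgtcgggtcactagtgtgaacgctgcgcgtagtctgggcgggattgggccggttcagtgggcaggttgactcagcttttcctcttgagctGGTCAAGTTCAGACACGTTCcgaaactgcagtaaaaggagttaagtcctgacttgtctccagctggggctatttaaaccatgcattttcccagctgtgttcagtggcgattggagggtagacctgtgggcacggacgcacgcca
FAS, chr10:88991181-88991480, + strand: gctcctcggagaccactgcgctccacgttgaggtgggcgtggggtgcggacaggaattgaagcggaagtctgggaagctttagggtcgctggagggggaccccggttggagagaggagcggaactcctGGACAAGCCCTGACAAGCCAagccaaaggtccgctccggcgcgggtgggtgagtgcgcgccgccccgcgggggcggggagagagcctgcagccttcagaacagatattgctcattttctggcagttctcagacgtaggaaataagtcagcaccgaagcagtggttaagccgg

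The promoters shown are all those of internal start sites. The DDB2 match has 0 mismatches, as in 0.0199% of all promoters, and covers bases 256 to 276 of the window, just after that start site. The DDB2 promoter at the first base of the gene had 5 mismatches at best. The MDM2 match has 2 mismatches and covers bases 157 to 176, and the MDM2 promoters further upstream had 5. The FAS match has 2 mismatches and covers bases 129 to 148, and the other FAS promoters had 3 and 4. The promoters of XPC and ZMAT3 had no match at this limit, with 3 mismatches in XPC. A match describes these letters and is no measure of p53 binding in OCI-LY10.

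Of the 17 probes, 12 were kept, and they stand for 8 of the 9 genes. FAS had no kept probe. Treatment was tested in limma as pimasertib minus DMSO with the time point as a block, over all kept probes. None of the 12 member probes passed an adjusted p of 0.05, where 0% of all 19896 kept probes passed, and their adjusted p ran from 0.691 to 0.979 in limma. At an unadjusted p under 0.05 there was 1 member probe, or 8.33%, against 6.87% of all kept probes (3.42% higher and 3.44% lower). The member differences ran from -0.45 to 0.47, with a median of 0.10, against a median of 0.02 over all kept probes. Their SEs lay between 0.15 and 0.25.

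By direction, 2 member probes (MDM2 and 1 of ZMAT3) were higher with pimasertib at 4, 8 and 12 h, or 16.7% against 17.4% of all kept probes. Only 2 DMSO arrays of that MDM2 probe exceeded the threshold, fewer than the filter asks for, so it was kept only with its pimasertib arrays counted. A single probe, of GADD45A, was lower at all 3 times, or 8.33% against 14.7%. The other 9 probes had differences of both signs over the times. Without both 8 h arrays, an alternative added after the data had been seen, 4 probes were higher at 4 and 12 h (33.3% against 28.6%) and 2 lower (16.7% against 27.3%). These shares lie near those of all kept probes, as far as 12 probes of 8 genes can show.

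**Figure D1:**
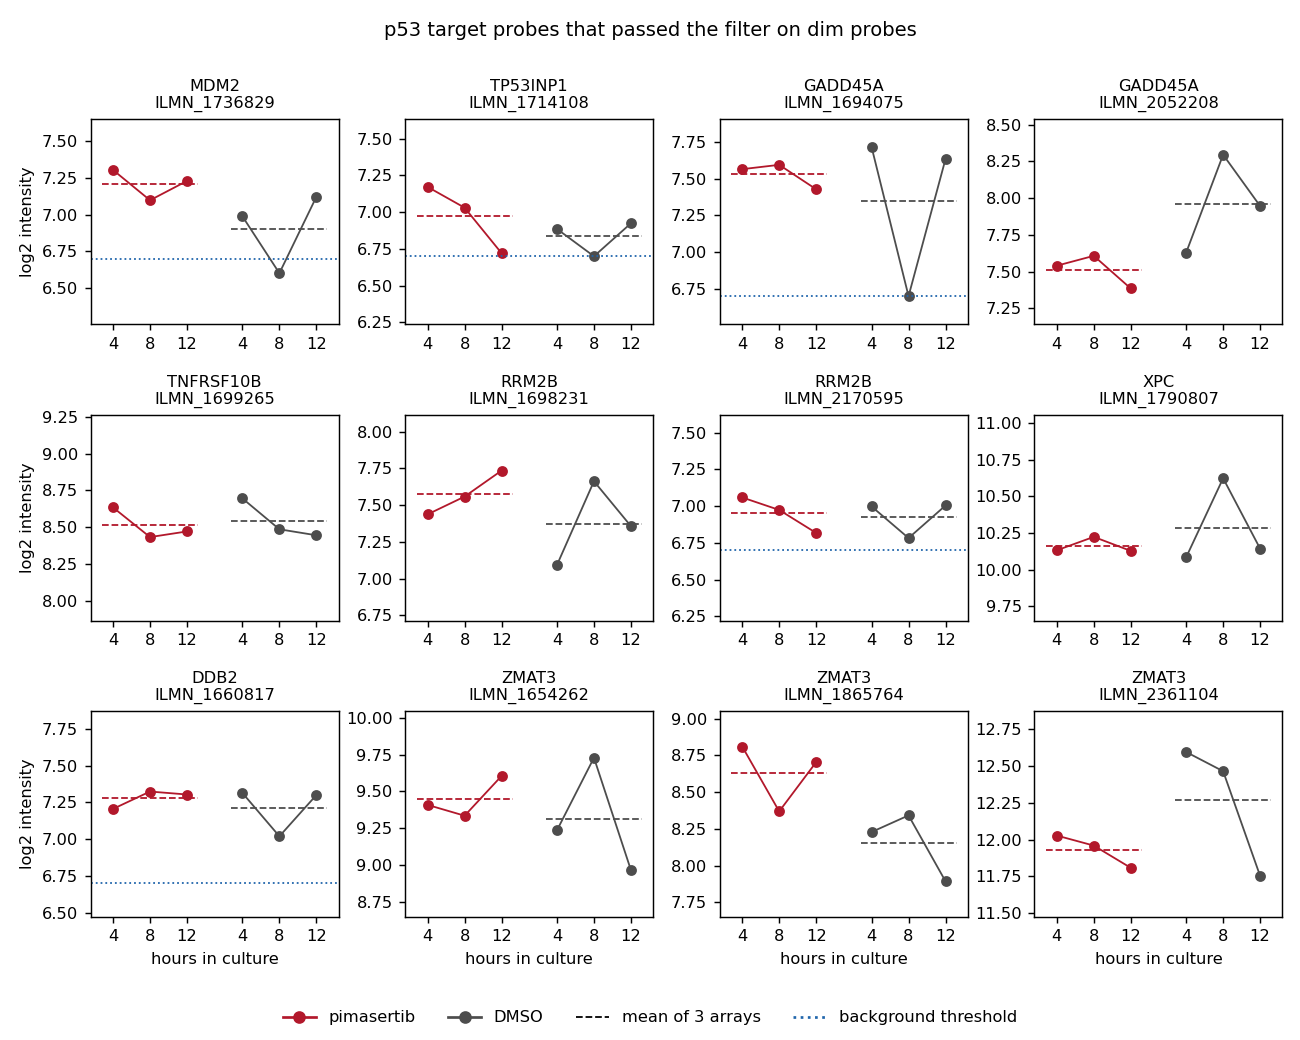
Log2 intensity (y axis) of the 12 kept probes in each array against hours in culture (x axis), with pimasertib arrays left of DMSO arrays. Dashed lines are means of 3 arrays, the dotted line is the background threshold of 6.70, and every panel spans the same log2 range. The DMSO array of 8 h lies furthest out in several panels, as for GADD45A at 6.70 and 8.30.

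MDM2, the ubiquitin ligase of the feedback loop, was the member of the first role. Its kept probe, ILMN_1736829, read 7.30, 7.10 and 7.23 with pimasertib at 4, 8 and 12 h, against 6.99, 6.60 and 7.12 in DMSO. Pimasertib arrays were higher at each time, but the groups overlapped, since the DMSO array of 12 h lay above the pimasertib array of 8 h. The DMSO array of 8 h lay under the threshold, which limits the 8 h difference and the mean that holds it. The mean difference was 0.31 ± 0.16 (SE, 95% interval -0.08 to 0.70), or 1.24-fold, with an adjusted p of 0.698 in limma. It was 0.21 without both 8 h arrays, and 0.16 ± 0.13 (SE) in the unblocked fit without the DMSO array of 8 h. The second probe, ILMN_1814208, was not kept. It read 6.67, 6.69 and 6.68 with pimasertib and 6.53, 6.80 and 6.43 in DMSO, and only the DMSO array of 8 h exceeded the threshold. That array was the lowest of 6 for the kept MDM2 probe and the highest of 6 for the dim one.

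The genes whose pattern over the 6 arrays was most like that of the kept MDM2 probe were BCAR3, ASNS and SSX3. Their Pearson correlations with it were 0.998, 0.997 and 0.995 over 6 arrays, the highest of all named kept probes outside the p53 lists. They were picked for these values from many probes, so their height is no test of a link with MDM2. BCAR3, an adaptor protein of integrin signalling, read 9.73, 9.49 and 9.67 with pimasertib and 9.33, 8.90 and 9.54 in DMSO. ASNS, asparagine synthetase, read 10.29, 10.21 and 10.27 with pimasertib and 10.15, 10.002 and 10.21 in DMSO. In each of them, as in MDM2, the DMSO array of 8 h was the lowest of 6.

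TP53INP1 encodes a stress-induced protein that supports p53 phosphorylation and autophagy. Its kept probe, ILMN_1714108, read 7.17, 7.03 and 6.72 with pimasertib, against 6.88, 6.70 and 6.92 in DMSO. Pimasertib arrays were higher at 4 and 8 h and lower at 12 h, with differences of 0.29, 0.33 and -0.20. Over the 3 times the difference was 0.14 ± 0.18 (SE), with an adjusted p of 0.851 in limma. It ran from 0.04 without the 8 h arrays to 0.31 without the 12 h arrays, and was 0.07 ± 0.16 (SE) in the unblocked fit without the DMSO array of 8 h. Its brightest array lay 0.47 above the threshold. The second probe, ILMN_2214197, exceeded the threshold in 0 of 6 arrays, at 6.51 to 6.63 with pimasertib and 6.51 to 6.59 in DMSO.

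GADD45A, an arrest and repair gene whose protein binds PCNA and p21, had a pair of kept probes that differed in sign. The probe ILMN_2052208 read 7.54, 7.61 and 7.39 with pimasertib, against 7.63, 8.30 and 7.95 in DMSO. All 3 pimasertib arrays lay below all 3 DMSO arrays, as they did for 7.5% of all kept probes. The difference was -0.45 ± 0.18 (SE, 95% interval -0.88 to -0.01), or 1.36-fold lower, with an unadjusted p of 0.0462 and an adjusted p of 0.691 in limma. It was the 1 member probe with an unadjusted p under 0.05. In the unblocked fit without the DMSO array of 8 h it was -0.28 ± 0.15 (SE), with an unadjusted p of 0.102, no longer under 0.05.

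The other GADD45A probe, ILMN_1694075, read 7.57, 7.59 and 7.43 with pimasertib, against 7.72, 6.70 and 7.63 in DMSO. Here the DMSO array of 8 h was the lowest of 6, while it was the highest of 6 for the first probe. The difference was 0.18 ± 0.25 (SE), with -0.15, 0.89 and -0.21 at 4, 8 and 12 h and an adjusted p of 0.864 in limma. Without both 8 h arrays the 2 probes had the same sign, at -0.18 for this probe and -0.33 for the first. The pimasertib arrays of each probe spanned only 0.17 and 0.22, against 1.01 and 0.67 for the DMSO arrays.

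The death receptors FAS and TNFRSF10B pass an apoptotic signal from their ligands to caspases. The FAS probe, ILMN_1808132, read 6.54, 6.58 and 6.62 with pimasertib, against 6.47, 6.57 and 7.01 in DMSO. Only the DMSO array of 12 h exceeded the threshold, so no fold is given. TNFRSF10B, which encodes the TRAIL receptor DR5, had 1 kept probe of 3. ILMN_1699265 read 8.63, 8.43 and 8.47 with pimasertib, against 8.70, 8.49 and 8.45 in DMSO. The arrays of each time lay close together, with differences of -0.06, -0.05 and 0.03. The difference was -0.03 ± 0.15 (SE, 95% interval -0.39 to 0.33), with an adjusted p of 0.968 in limma. This interval holds differences of either sign, so TNFRSF10B cannot be called unchanged. Its other probes exceeded the threshold in 1 and 0 arrays, at 6.49 to 6.63 and 6.55 to 6.66 with pimasertib, and 6.56 to 6.77 and 6.47 to 6.68 in DMSO.

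**Figure D2:**
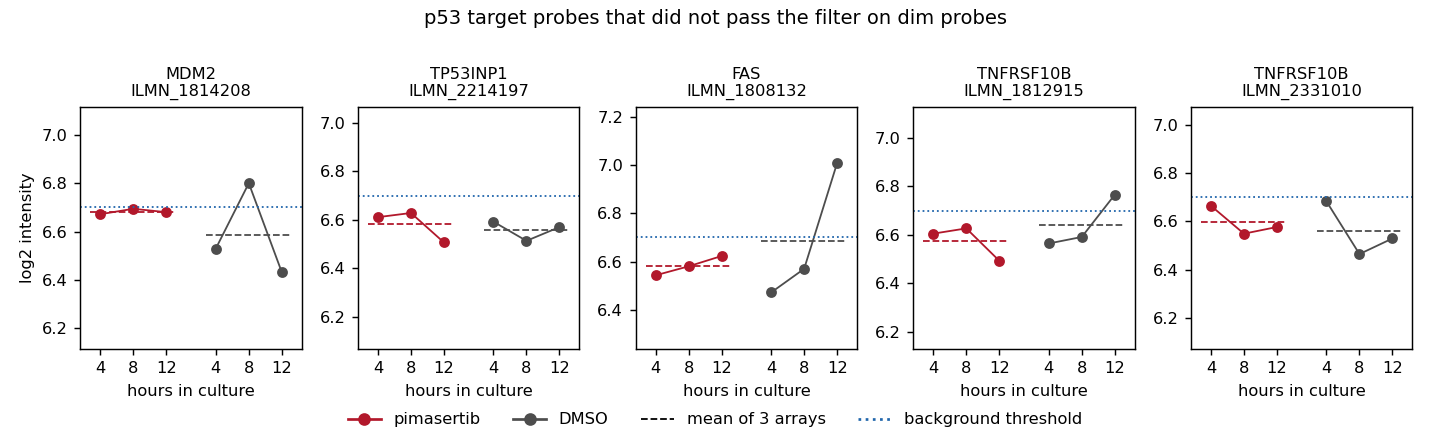
Log2 intensity (y axis) of the 5 member probes that were not kept, against hours in culture (x axis), with pimasertib arrays left of DMSO arrays. The dotted line is the background threshold of 6.70, which 1 array exceeded for 3 probes, in each case a DMSO array, and 0 arrays for the other 2.

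RRM2B encodes the p53-inducible small subunit of ribonucleotide reductase, which supplies nucleotides for repair. The probe ILMN_1698231 read 7.44, 7.56 and 7.74 with pimasertib, against 7.09, 7.66 and 7.36 in DMSO. Its differences were 0.34, -0.10 and 0.38 at 4, 8 and 12 h, and 0.21 ± 0.17 (SE) over the 3 times, with an adjusted p of 0.760 in limma. The probe ILMN_2170595 read 7.06, 6.97 and 6.82 with pimasertib, against 6.998, 6.78 and 7.005 in DMSO, a difference of 0.02 ± 0.16 (SE). The brightest array of this second probe lay 0.36 above the threshold. Without both 8 h arrays the differences of these probes were 0.36 and -0.06.

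XPC and DDB2 recognise damaged DNA in nucleotide excision repair. The XPC probe, ILMN_1790807, read 10.13, 10.22 and 10.13 with pimasertib, against 10.08, 10.62 and 10.14 in DMSO. Only the DMSO array of 8 h stood away from the other 5, which lay within 0.14 of each other. The difference was -0.12 ± 0.17 (SE), with an adjusted p of 0.861 in limma, and 0.05 ± 0.12 (SE) in the unblocked fit without the DMSO array of 8 h. DDB2, whose internal promoter above holds the match of 0 mismatches, was measured on 1 probe, ILMN_1660817. It read 7.21, 7.32 and 7.30 with pimasertib, against 7.31, 7.02 and 7.30 in DMSO. Its difference was 0.07 ± 0.16 (SE, 95% interval -0.33 to 0.46), with an adjusted p of 0.924 in limma. The sign turned without both 8 h arrays, at -0.05, and in the unblocked fit without the DMSO array of 8 h, at -0.03 ± 0.12 (SE). At 12 h the DDB2 arrays differed by 0.004, and the DMSO array of 8 h was again the lowest of 6.

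ZMAT3, also known as WIG1, encodes a zinc finger protein that binds RNA and regulates splicing and mRNA stability. All 3 of its probes were kept, and they differed in direction. The probe ILMN_1865764, annotated to another cDNA record than the other two, read 8.81, 8.37 and 8.70 with pimasertib, against 8.23, 8.34 and 7.89 in DMSO. All 3 pimasertib arrays lay above all 3 DMSO arrays, as they did for 8.11% of all kept probes. The difference was 0.47 ± 0.20 (SE, 95% interval -0.005 to 0.95), or 1.39-fold, with an unadjusted p of 0.0517 and an adjusted p of 0.691 in limma. By time it was 0.58, 0.03 and 0.81, and it was 0.70 without both 8 h arrays. In the unblocked fit without the DMSO array of 8 h it was 0.57 ± 0.18 (SE), with an unadjusted p of 0.0158 and an adjusted p of 0.636 in limma.

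The second ZMAT3 probe, ILMN_1654262, read 9.41, 9.33 and 9.60 with pimasertib, against 9.24, 9.73 and 8.96 in DMSO. Its difference was 0.14 ± 0.22 (SE), with 0.17, -0.39 and 0.64 by time. It was 0.41 without both 8 h arrays. The third, ILMN_2361104, read 12.03, 11.96 and 11.81 with pimasertib, against 12.60, 12.47 and 11.75 in DMSO. Its difference was -0.34 ± 0.19 (SE), with -0.57, -0.51 and 0.05 by time and an adjusted p of 0.702 in limma. In DMSO this probe was lower at 12 h than at 4 and 8 h, with a slope of -0.11 ± 0.04 per hour (SE) and an unadjusted p of 0.0322, while the pimasertib arrays spanned 0.22. The slope did not pass over all kept probes (adjusted p = 1, limma). It passed without the DMSO array of 8 h (adjusted p = 0.000468, limma), where the fit kept 1 residual degree of freedom. That fit called 2978 of the 19896 kept probes. Its DMSO slope joins only the arrays of 4 and 12 h. The p-value therefore measures no spread among DMSO arrays, and no DMSO trend is read from it.

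**Figure D3:**
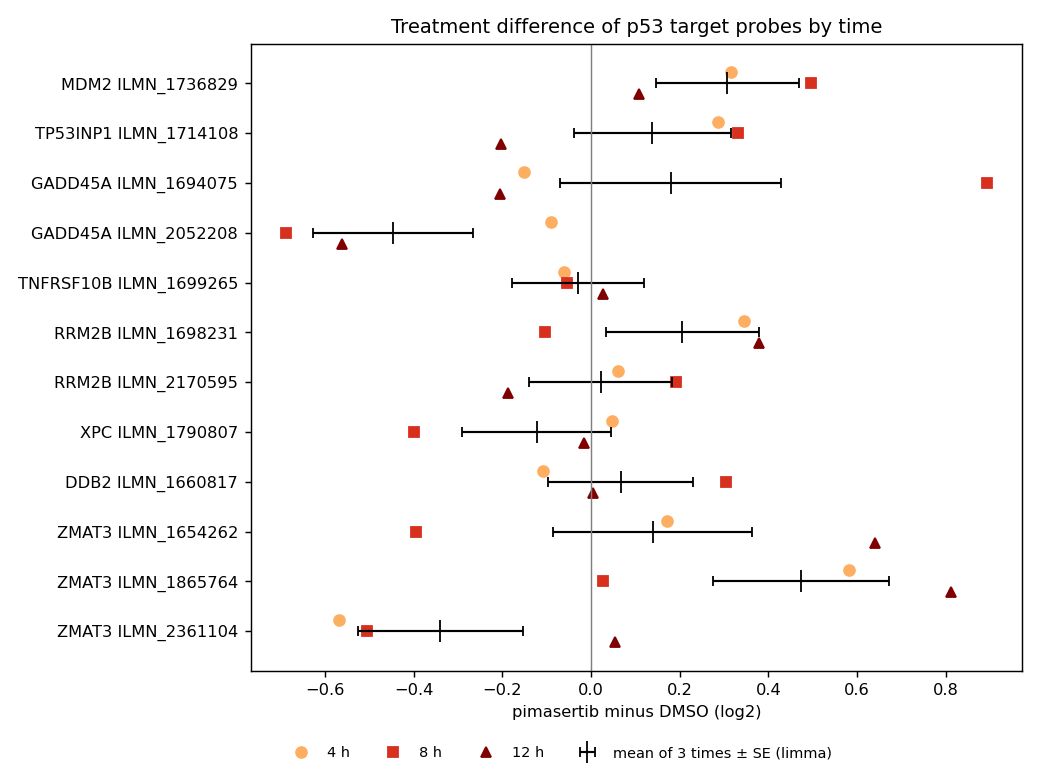
Pimasertib minus DMSO (x axis, log2) for each of the 12 kept probes (rows) at 4 h (circle), 8 h (square) and 12 h (triangle), with the mean of the 3 times and its limma SE. Squares often lie apart from the other symbols, as at 0.89 and -0.69 for the probes of GADD45A.

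Probes of 1 gene also differed elsewhere on the array. Of 3 members with several kept probes, GADD45A and ZMAT3 had differences of opposite sign, and so did 51% of all 2858 such genes. In size, the gap between the 2 GADD45A probes was 0.63, and 8.4% of the 2226 genes with 2 kept probes had a larger one. The gap for ZMAT3 was 0.81, and 8.69% of the 518 genes with 3 kept probes had a larger one. For RRM2B the gap was 0.18, and 60% had a larger one. No single direction can be given for GADD45A or ZMAT3 from these probes.

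The DMSO array of 8 h was the highest or lowest of 6 for 8 of the 12 kept member probes, or 66.7%, against 65.2% of all kept probes. It was the highest for 3 of them (25% against 30.5%) and the lowest for 5 (41.7% against 34.7%). The DMSO arrays spanned more than the pimasertib arrays for 10 of 12 probes (83.3% against 78.5% of all kept probes), and the median span was 0.22 with pimasertib and 0.53 in DMSO. The unblocked fit without this array changed the sign of 4 of 12 differences, and again 0 member probes passed. At an unadjusted p under 0.05 there were then 3 member probes, 2 of ZMAT3 and 1 of RRM2B, or 25% against 7.58% of all kept probes. With the arrays of 1 time left out in turn, the differences of 10 of the 12 member probes changed sign or moved by over 1.5 times, and 5 of these changed sign.

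Whether the treatment difference moved with time was tested as a slope per hour. None of the 12 member probes passed an adjusted p of 0.05 in limma, where 0% of all kept probes did, and 0 had an unadjusted p under 0.05, against 1.87% of all kept probes. The slopes ran from -0.06 per hour for the kept TP53INP1 probe to 0.08 per hour for ILMN_2361104 of ZMAT3. Within DMSO, 0 member probes passed, as did 0% of all kept probes, and 1 had an unadjusted p under 0.05 (8.33% against 3.7%), the ZMAT3 probe described above.

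Other genes of the p53 pathway were taken by role from 5 lists of 74 genes, of which 61 had 86 kept probes. None of the 86 passed an adjusted p of 0.05 in limma, where 0% of all kept probes did, and 11 had an unadjusted p under 0.05 (12.8% against 6.87%). In the unblocked fit without the DMSO array of 8 h there were 6 (6.98% against 7.58%). At all 3 times 16 probes were higher (18.6% against 17.4%) and 16 lower (18.6% against 14.7%). Those lower include SFN, whose direction the filter fixed. Those higher include PERP, which passed the filter only through its pimasertib arrays. At 4 and 12 h alone 31 were higher (36% against 28.6%) and 23 lower (26.7% against 27.3%). Their median difference was -0.004, against 0.02 for all kept probes.

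**Figure D4:**
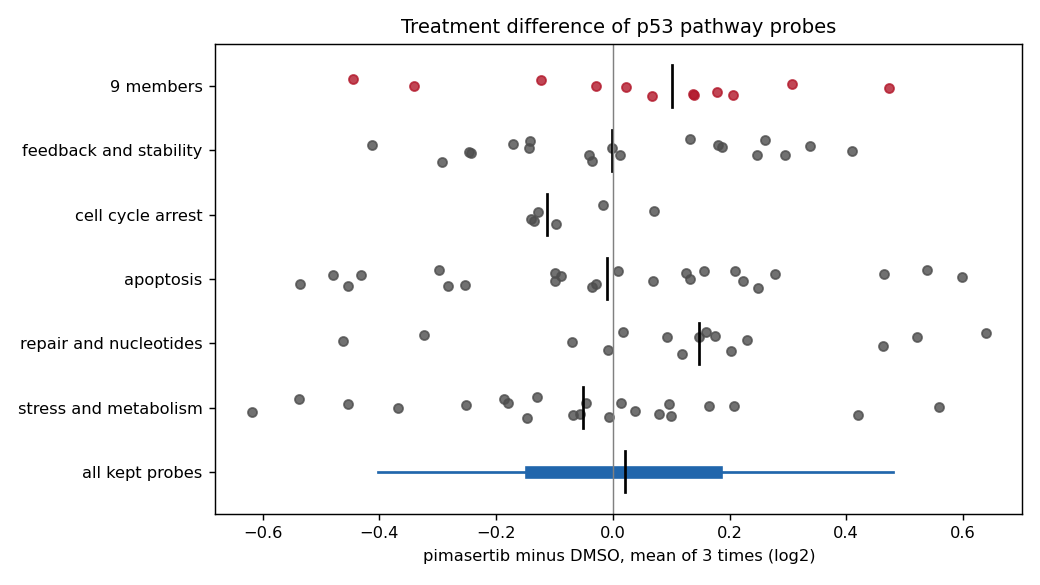
Pimasertib minus DMSO, mean of 3 times (x axis, log2), for kept probes (points) of the 9 members and of 5 lists of other p53 pathway genes (rows), with the median of each as a vertical line. The bottom row gives the 5th to 95th percentile (-0.40 to 0.48, thin), the quartiles (thick) and the median of all kept probes. Points of the 5 lists run from -0.62 to 0.64, so some lie outside the thin line on either side.

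Regulators of p53 were led by MDM4, a relative of MDM2 that masks the activation domain of p53. It read 7.17, 7.25 and 7.16 with pimasertib, against 6.75, 6.74 and 6.85 in DMSO. The groups did not overlap, and the difference was 0.41 ± 0.15 (SE), with an unadjusted p of 0.0335 and an adjusted p of 0.691 in limma. The difference was of similar size at each time, at 0.41, 0.50 and 0.32. It was 0.36 without both 8 h arrays, and 0.39 ± 0.12 (SE) in the unblocked fit without the DMSO array of 8 h. HIPK2, a kinase that phosphorylates p53, was at 0.29 ± 0.15 (SE) on a probe whose groups did not overlap either, and at 0.25 on its other kept probe, or -0.01 without both 8 h arrays. CCNG1, a cyclin that p53 induces and that brings a phosphatase to MDM2, was at -0.41 ± 0.17 (SE), or -0.36 without both 8 h arrays. DAXX, a partner of MDM2, was at -0.29 ± 0.16 (SE), or -0.21 without those arrays. Its pimasertib arrays lay below its DMSO arrays only narrowly, at up to 7.374 against 7.380 or more, and the 4 h difference was -0.04. In this list 10.5% of kept probes lay all above and 5.26% all below, against 8.11% and 7.5% of all kept probes. In all, 5 of 19 kept probes of this list were higher (26.3% against 17.4%) and 3 lower (15.8% against 14.7%) at all 3 times.

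Among arrest genes, CDKN1A encodes p21, the main p53-induced inhibitor of cyclin-dependent kinases. Its kept probe read 9.95, 10.27 and 10.21 with pimasertib, against 9.74, 10.55 and 10.19 in DMSO, a difference of -0.02 ± 0.17 (SE), or 0.12 without both 8 h arrays. The groups overlapped throughout. PLK3 was at -0.14 ± 0.15 (SE), or -0.08 in the unblocked fit without the DMSO array of 8 h, and CCNG2 at 0.07 ± 0.15 (SE), with its other kept probe at -0.10. Without both 8 h arrays PLK3 was at -0.15, and these CCNG2 values were 0.04 and 0.14. SFN, which encodes 14-3-3 sigma, read 6.69, 6.63 and 6.63 with pimasertib, all not above the threshold, against 6.88, 6.72 and 6.73 in DMSO. Of 6 kept probes, 0 were higher at all 3 times, against 17.4% of all kept probes. PLK3 and SFN were lower at all 3 (33.3% against 14.7%). But SFN was kept only through its DMSO arrays, so that the filter fixed its direction and it is not read as lower.

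Apoptotic targets lay on both sides. PMAIP1, the gene of the pro-apoptotic BH3-only protein NOXA, read 9.57, 9.53 and 9.66 with pimasertib, against 9.24, 8.29 and 9.44 in DMSO on its first probe. That difference was 0.60 ± 0.23 (SE) and became 0.28 without both 8 h arrays, and the other kept probe was at -0.03 ± 0.15 (SE), or 0.04 without those arrays. The effector BAX was at -0.48 ± 0.17 and -0.43 ± 0.23 (SE) on its kept probes, or -0.39 and -0.23 in the unblocked fit without the DMSO array of 8 h. Its first probe read 7.02, 6.87 and 6.61 with pimasertib, against 7.19, 7.49 and 7.26 in DMSO, with the 12 h pimasertib array under the threshold. TP53I3, an oxidoreductase, was at -0.45 ± 0.17 (SE), and at -0.28 ± 0.13 (SE) in the unblocked fit without the DMSO array of 8 h, its highest of 6. PERP, a membrane protein, was at 0.46 ± 0.20 (SE), and only 1 of its DMSO arrays exceeded the threshold. The difference of BBC3, which encodes PUMA, was 0.16 ± 0.22 (SE), and 0.40 without both 8 h arrays. Of 24 kept probes 6 were higher (25% against 17.4% of all kept probes) and 4 lower (16.7% against 14.7%) at all 3 times. All pimasertib arrays lay above all DMSO arrays for 5 (20.8% against 8.11%) and below them for 2 (8.33% against 7.5%). None passed in limma. PERP is among the 6 and among the 5, but it passed the filter only through its pimasertib arrays and is not read as higher.

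In the list of repair and nucleotide genes, the excision endonuclease ERCC5 was at 0.64 ± 0.25 (SE) and DDB1, the partner of DDB2, at 0.52 ± 0.22 (SE). Without both 8 h arrays these were 0.31 and 0.23, and the other kept DDB1 probes were at 0.09 and -0.07. POLH, a translesion polymerase, was at -0.46 ± 0.18 and GADD45B, a relative of GADD45A, at -0.32 ± 0.18 (SE), with -0.30 and -0.15 without those arrays. The other POLH probe was at 0.23 ± 0.15 (SE), of opposite sign. Among stress and metabolic targets, the helicase ASCC3 was at 0.42 ± 0.16, TNFAIP8 at 0.56 ± 0.35, the tetraspanin CD82 at -0.62 ± 0.24 and SUSD6 at -0.45 ± 0.19 (SE). TNFAIP8, CD82 and SUSD6 were at 0.03, -0.28 and -0.27 without both 8 h arrays. In the unblocked fit without the DMSO array of 8 h they were at -0.02 ± 0.28, -0.38 ± 0.17 and -0.16 ± 0.24 (SE). Other kept probes were at -0.06 and -0.19 for ASCC3 and at 0.10 for CD82. Of 15 repair probes 3 were higher (20% against 17.4%) and 2 lower (13.3% against 14.7%) at all 3 times. Of 22 stress probes 2 were higher (9.09%) and 5 lower (22.7%). None of either list was past the threshold in limma.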

How the data were processed

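Gene expression was measured on Illumina bead arrays with biotinylated cRNA, per the labels' protocols. The authors' deposited values are log2 intensities, from 6.20 to 13.91, and the sorted values of the 6 arrays differ by at most 9e-04, so they had been quantile-normalized. The sources used here name no software or background correction. Unnormalized intensities in another table were left out, since its 6 columns match no label. No detection p-values were at hand. The most frequent log2 value was 6.49 (bins of 0.02), and 0.0700 was the SD of background, from values below the mode. The threshold is 3 SDs above that mode. Annotation named 1 gene on 30113 probes, several on 8 and none on 17110, and 30074 matched a current RefSeq gene.

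Differences were tested in limma 3.58.1 (R 4.3.3, statmod 1.5.0), pimasertib minus DMSO, on all 6 arrays, and the 3 time points entered as a block that pairs the arrays. The labels give no other replicate number. This leaves 2 residual degrees of freedom, and a change of the difference with time counts as error. Tests were two-sided and adjusted by Benjamini-Hochberg over all 19896 kept probes. An exact test of 3 against 3 arrays cannot go below 0.1. Slopes came from a model with an interaction of treatment and hours. The unblocked fit without the DMSO array of 8 h left out the time point as well. At a single time there is 1 array per treatment and no test. The fits were run on simulated data with noise of SD 0.1 and treatment differences of 1 or 2 in size. This noise was not matched to the data. The runs show nothing about differences as small as those of the member probes (-0.45 to 0.47).

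Members and lists were chosen with earlier results of these data known. All member probes are named. Each pathway list gives its 2 kept probes of smallest p per direction (only 1 was higher among arrest genes), with CDKN1A, BBC3, PMAIP1, BAX and MDM4 whatever their values. Of the 74 listed genes, 6 were not analysed here. Alternatives were other filters, 1 probe per gene, a trended and robust prior, array weights, cyclic loess, no time block, linear hours, arrays left out and an adjusted p of 0.1. For arrays, their number limits the precision.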

Additional observations from a re-analysis of the deposited data

How the results depend on the processing

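Over 14 alternatives to the treatment fit, 0 member probes and 0 probes of the 5 pathway lists passed, including the fit with no replicate block, in which the time point no longer pairs the arrays (0 of all kept probes). Over all kept probes, 2 passed with a trended and robust prior, and with 1 time pair left out the count ran from 0 to 10, the 10 without the 12 h pair and its 1 residual degree of freedom. Slopes of the treatment difference called 88 probes with array weights and 1930 without the DMSO array of 8 h. Slopes within DMSO called 467 and 2978 under the same settings. The fit without that array has 1 residual degree of freedom. The only member call among these was the DMSO slope of the ZMAT3 probe ILMN_2361104, at -0.11 per hour without that array. The other 365 of 366 member values kept their side of the threshold, and 14 that passed in neither fit changed sign. Adjusted p-values of the member differences ran from 0.426 to 0.999 over these alternatives. Intensities of MDM2, TP53INP1 and 1 RRM2B probe lie close to the background threshold, where a difference is hard to measure. With a stricter threshold of 6.91, 14611 probes were kept.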
